A study of Homo sapiens with 4 samples.

Results

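The genes described here are 41 protein-coding genes that carry a well-known microRNA hairpin within their locus, out of 58037 gene rows in the series' table. They were picked by name from the rows of the protein-coding class, by a rule that uses no measured value. The names were chosen with earlier results of these data known. In the reference annotation (GENCODE 29), 37 of them hold at least 1 hairpin on their own strand, 59 such hairpins in all. The other 4, ACADVL, IARS2, LARP7 and MIB1, hold hairpins on the opposite strand only, which lie in their locus but not in their transcript.

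Most microRNAs of introns are cut out of the host's primary transcript. The Microprocessor, in which the RNase DROSHA works with the RNA-binding protein DGCR8, crops the hairpin from the nascent RNA, and DICER1 later trims it to the mature microRNA. Cropping inside an intron is known to be compatible with splicing of the host, while cropping inside an exon cuts the mRNA itself. A few very short introns, called mirtrons, fold into a hairpin once they are spliced out and need no cropping by DROSHA.

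The study compared K562 cells, a human chronic myeloid leukaemia line with erythroid features, that had received a CRISPR lentivirus against DROSHA with K562 cells that had received a non-specific one. Each group had 2 libraries, all from cells selected with puromycin at 2.5 ng/μl and kept at passages 25 to 30. Whole-cell RNA was sequenced with a stranded total RNA kit, so that introns and nuclear RNA are covered and mature microRNAs are not. The labels do not say whether the cells were a pool or 1 clone or whether the libraries of a group came from separate cultures, so p-values measure only the spread between these libraries.

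Fold changes and adjusted p-values are the authors' (log2 scale, knockdown over control, called at an adjusted p under 0.05), and each error (SE) was worked back from their p-value. Values for single libraries, in normalised reads, were recovered from the deposited means and are named by relative depth within a group, deeper and shallower, because they could not be tied to replicate numbers. The size factors were 1.23 and 0.918 for the control libraries and 1.09 and 0.813 for the knockdown libraries, and total reads per library are unknown. DROSHA stood at 6107 and 6077 normalised reads in the controls and 2734 and 2770 in the knockdown, and its log2 fold change in the authors' deposited table was -1.15 (SE 0.135, adjusted p = 8.1e-14). The direction of every fold change was read from this gene, so it does not check the labels. All 11 K562 markers looked up, TFRC and HBG2 among them, were tested by the authors and 0 were called, also at an implied unadjusted p under 0.05. Of 9 markers of other cell types 1 was listed at 0, 3 were tested and 0 were called at either level. Those tested were EPCAM, at a deposited mean of 2755 normalised reads, PECAM1 at 192 and COL1A2 at 81.8.

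The hairpins of the 3 hosts that were called, NSRP1, ZRANB2 and GABRE, are shown with that of EGFL7, whose hairpin row gained the most reads, and that of ABCF1, a known mirtron. The sequences are from RefSeq (GRCh38.p14), 5′ to 3′, and capitals mark the mature microRNAs among the sequences used here. For MIR186 these held only miR-186-3p, so lower case does not show that its other arm yields none.
MIR423, in NSRP1, chr17:30117079-30117172, plus strand: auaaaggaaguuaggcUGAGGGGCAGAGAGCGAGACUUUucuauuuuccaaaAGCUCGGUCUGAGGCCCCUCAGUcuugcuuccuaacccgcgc
MIR186, in ZRANB2, chr1:71067631-71067716, minus strand: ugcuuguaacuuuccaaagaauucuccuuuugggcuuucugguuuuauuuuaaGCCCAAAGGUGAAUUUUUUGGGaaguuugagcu
MIR224, in GABRE, chrX:151958578-151958658, minus strand: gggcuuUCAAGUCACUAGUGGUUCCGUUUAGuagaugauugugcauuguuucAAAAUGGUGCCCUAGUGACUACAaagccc
MIR452, in GABRE, chrX:151959628-151959712, minus strand: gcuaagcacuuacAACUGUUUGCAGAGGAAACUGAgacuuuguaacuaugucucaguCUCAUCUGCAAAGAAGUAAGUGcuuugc
MIR126, in EGFL7, chr9:136670602-136670686, plus strand: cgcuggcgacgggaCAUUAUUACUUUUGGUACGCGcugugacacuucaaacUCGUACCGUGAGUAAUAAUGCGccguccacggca
MIR877, in ABCF1, chr6:30584332-30584417, plus strand: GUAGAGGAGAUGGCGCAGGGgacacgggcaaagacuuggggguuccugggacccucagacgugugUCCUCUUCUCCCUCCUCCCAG

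Of the 41 hosts, 39 were tested by the authors, 3 were called higher in the knockdown, 0 were called lower and 36 were not called. Over all 14231 tested genes 0.33% were called higher and 0.0211% lower, and over the 11608 tested protein-coding genes 0.276% were called higher and 0.0258% lower. Limma on the recovered libraries called 3 hosts higher and 0 lower, beside 0.292% and 0.015% of the 13374 genes in that fit. These were the hosts that the authors called, and their reads were recovered with the deposited fold change as an input. The limma estimates for them come from the same libraries and are not a separate check of the authors' values. For the tested hosts the median of the log2 fold changes in the authors' deposited table was 0.04, beside -0.03 for all tested genes and -0.04 for tested protein-coding genes. A log2 fold change above 0 was listed for 23 of the 39 hosts (59.0%), beside 45.1% of all tested genes. Neither figure was tested, and the shares called come from hosts chosen with earlier results of these data known. Library values were recovered for 30 of the tested hosts. Both knockdown libraries lay above both controls for 7 of them, beside 19.1% of all recovered genes, and below both for 5, beside 22.7%. In the other 18 the groups overlapped.

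**Figure D1:**
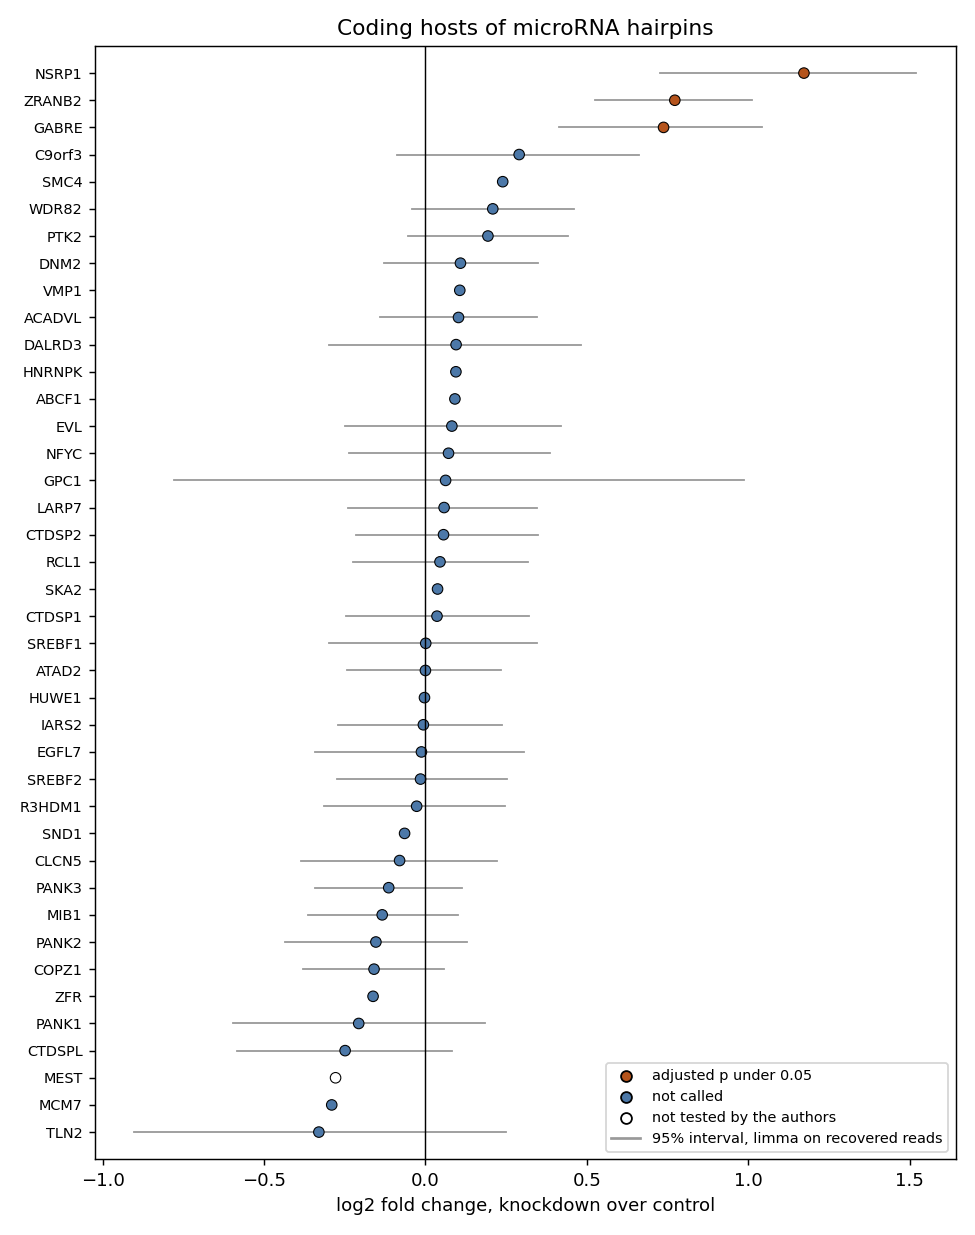
Log2 fold change (knockdown over control) of each host with a value in the authors' deposited table, in order of size, with LPP left out because it was listed at 0. Points are the authors' values and lines are 95% intervals of a limma fit to the recovered libraries, missing where reads were not recovered; NSRP1, ZRANB2 and GABRE stand at 0.74 to 1.17, and the 36 hosts not called lie between -0.33 and 0.29.

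NSRP1, which encodes a splicing regulator of nuclear speckles, had the largest rise of the 39. It stood at 832 normalised reads in the deeper control library and 812 in the shallower, against 1377 in the deeper knockdown library and 2332 in the shallower. The groups did not overlap, and the knockdown libraries lay further apart than the controls. In the authors' deposited table its log2 fold change was 1.17 (SE 0.218, adjusted p = 5.8e-05). A limma fit to the recovered libraries gave 1.12, with a 95% interval from 0.73 to 1.52 (adjusted p = 0.0091).

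ZRANB2, a zinc finger protein that binds RNA and acts in splice site choice, was also higher. It stood at 4346 and 4402 normalised reads in the control libraries and at 6911 and 8037 in the knockdown libraries, deeper first, with no overlap. Its log2 fold change in the authors' deposited table was 0.77 (SE 0.142, adjusted p = 4.8e-05), and limma gave 0.77 with a 95% interval from 0.53 to 1.01 (adjusted p = 0.0027).

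GABRE encodes the epsilon subunit of the GABA-A receptor, a chloride channel best known in neurons. It stood at 1639 and 1409 normalised reads in the control libraries and at 2883 and 2198 in the knockdown libraries, deeper first, again with no overlap. Its log2 fold change in the authors' deposited table was 0.74 (SE 0.175, adjusted p = 0.0097), and limma gave 0.73 with a 95% interval from 0.41 to 1.04 (adjusted p = 0.047).

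The limma calls of all 3 rested on both control libraries. A fit with a lone library in a group takes its spread from the other group alone. Over all recovered genes the number called also fell without either control, so the loss is not particular to these 3 hosts. Without the deeper control the limma adjusted p was 0.074 for NSRP1, 0.052 for ZRANB2 and 0.098 for GABRE, and without the shallower control 0.144, 0.062 and 0.493. Without the deeper knockdown library the limma adjusted p of GABRE was 0.187, while NSRP1 and ZRANB2 stayed under 0.05. The log2 fold changes over these 4 fits ran from 0.74 to 1.50 for NSRP1, from 0.66 to 0.88 for ZRANB2 and from 0.53 to 0.92 for GABRE.

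**Figure D2:**
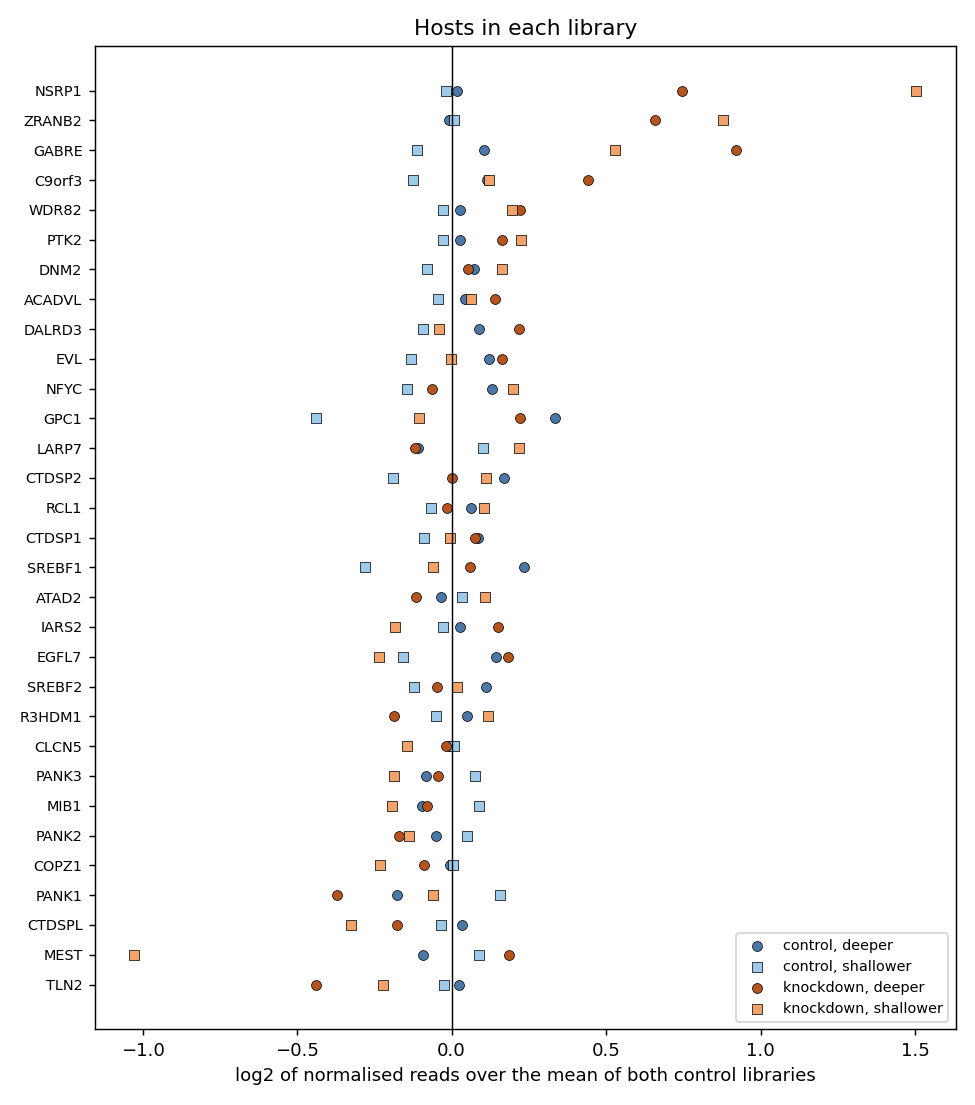
Log2 of normalised reads of each host over the mean of both control libraries, for the 31 hosts whose libraries were recovered, MEST included. Circles are the deeper and squares the shallower library of each group; the knockdown points of NSRP1, ZRANB2 and GABRE lie to the right of both controls, and in 18 of the other 27 tested hosts the groups overlap.

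The place of the hairpin in the host differed among the 3. NSRP1 lies at chr17:30115521-30186475 on the plus strand. In its principal transcript MIR423 is in intron 1 of 6, but in another coding transcript the whole hairpin lies in an exon of 341 bases. GABRE lies at chrX:151953124-151974680 on the minus strand, with both MIR224 and MIR452 in intron 6 of 8. A retained-intron transcript of GABRE has a 4016-base exon that holds both hairpins whole and makes up 41.8% of the merged exon length of the gene. ZRANB2 lies at chr1:71063291-71081297 on the minus strand, and MIR186 is in intron 8 of 9, outside every annotated exon of the gene. Coordinates and exons are those of GENCODE 29 on GRCh38.

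In 5 hosts an own-strand hairpin lies in an exon of some annotated transcript. Besides NSRP1 and GABRE these are C9orf3, an aminopeptidase gene with MIR24-1, VMP1, an autophagy membrane protein with MIR21, and HNRNPK, an RNA-binding protein with MIR7-1. The exon with the whole hairpin makes up 62.5% of the merged exon length in VMP1, 16.3% in HNRNPK and 1.77% in C9orf3, none of them called. In the called hosts it makes up 41.8% in GABRE and 7.1% in NSRP1. All 5 had a log2 fold change above 0 in the authors' deposited table, with a median of 0.29, and 2 were called. Of the 30 tested hosts with own-strand hairpins in introns alone, 1 was called (ZRANB2), and the median was 0.0007. In the same annotation 876 other coding genes hold an own-strand hairpin, and 628 of them were tested. Among those the exon class had 1 called gene of 171, DGCR8, whose mRNA is itself a known target of DROSHA, and the intron class had 0 of 457. In that intron class limma called 0 of the 421 recovered genes and put 38 (9.03%) at an unadjusted p under 0.05, beside 19 of 141 (13.5%) in the exon class and 10.3% of all recovered genes. By the authors' test at least 31 genes of the intron class (6.78%) and 17 of the exon class (9.94%) had an unadjusted p under 0.05, beside 6.80% of all tested genes. The median log2 fold change of these other hosts in the authors' deposited table was -0.03 in the exon class, where 43.9% lay above 0, and -0.05 in the intron class. The spacing of the class medians in the 39 hosts was thus not seen at that size in the 628. The classes were formed with results known and were not tested against each other.

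**Figure D3:**
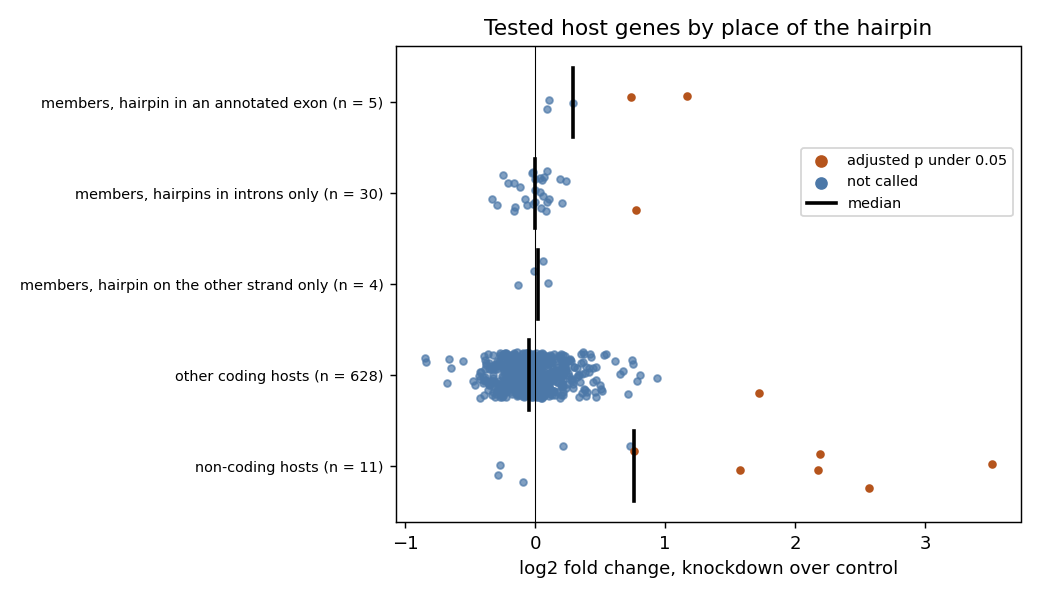
Log2 fold change (knockdown over control) in the authors' deposited table for every tested host gene, 1 point a gene, grouped by where the annotation places its hairpins, with the median of each class as a bar. The 5 hosts with an own-strand hairpin in an annotated exon have a median of 0.29, the 30 with intronic hairpins alone 0.0007, and 11 named non-coding hosts 0.76.

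A list of non-coding host transcripts gives a scale for these values. Of 23 such rows 11 were tested, of which 6 were called higher, 0 were called lower and 5 were not called. The median log2 fold change of the 11 in the authors' deposited table was 0.76, and 8 of them lay above 0. The 2 described next are among those called. MIR22HG, the host of miR-22, stood at 313 and 288 normalised reads in the controls and 1861 and 1714 in the knockdown, and MIR17HG, which carries the miR-17/92 cluster, at 2320 and 2554 against 8772 and 5760. Their log2 fold changes in the authors' deposited table were 2.57 and 1.58. The list was also drawn up with results known.

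Among the hosts with a role in chromosomes and replication, none was called. MCM7, a subunit of the replicative helicase, holds MIR25, MIR93 and MIR106B in intron 13 of 14. Its libraries were not recovered, and the deposited mean and fold change imply group means of 25051 normalised reads in the control and 20489 in the knockdown. Its log2 fold change in the authors' deposited table was -0.29 (SE at most 0.143, adjusted p = 0.669), the smallest adjusted p of the hosts not called and the only one with an implied unadjusted p under 0.05, at most 0.042. The opposite-strand gene AP4M1 shares exon sequence with MCM7 and had a deposited mean of 477.6 normalised reads. SMC4, a core subunit of condensin and host of MIR15B and MIR16-2, had implied means of 14321 and 16908, with a log2 fold change of 0.24 (SE at most 0.142, adjusted p = 0.780) in the authors' deposited table. ATAD2, a chromatin ATPase, and SKA2, a protein of the spindle and kinetochore, stood at 0.0002 and 0.04 on the same scale.

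The hosts that share a microRNA family are also gene paralogues in 3 cases, and their mature sequences show it. The RefSeq mature sequences follow, with the seed, bases 2 to 8, in capitals.
miR-107, from PANK1: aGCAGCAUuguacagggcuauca
miR-103a-3p, from PANK2 and PANK3: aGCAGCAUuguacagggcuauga
miR-26a-5p, from CTDSP2 and CTDSPL: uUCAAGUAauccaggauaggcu
miR-26b-5p, from CTDSP1: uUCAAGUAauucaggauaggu
miR-33a-5p, from SREBF2: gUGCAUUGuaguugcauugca
miR-33b-5p, from SREBF1: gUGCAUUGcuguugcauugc

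The PANK genes encode the pantothenate kinases, which start coenzyme A synthesis, and each holds its hairpin in intron 5 of 6. PANK1 stood at 384 and 484 normalised reads in the controls and 336 and 417 in the knockdown, PANK2 at 1709 and 1831 against 1574 and 1609, and PANK3 at 8195 and 9144 against 8407 and 7618. The groups overlapped for PANK1 and PANK3, and for PANK2 both knockdown libraries were below both controls. Their log2 fold changes in the authors' deposited table were -0.21, -0.15 and -0.11, with SEs of at most 0.229, 0.151 and 0.140 and adjusted p-values of 0.929, 0.919 and 0.943. PANK3 shares exon sequence with a pseudogene on its strand, SLC2A3P1, whose deposited mean was 1141 normalised reads.

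The CTDSP genes encode small phosphatases that act on the tail of RNA polymerase II. CTDSP1 stood at 1952 and 1730 normalised reads in the controls and 1941 and 1834 in the knockdown, and CTDSP2 at 3755 and 2929 against 3343 and 3611, each with overlap. CTDSPL stood at 675 and 645 against 584 and 526, with both knockdown libraries below both controls. The log2 fold changes in the authors' deposited table were 0.04 for CTDSP1 (SE 0.153, adjusted p = 0.989), 0.06 for CTDSP2 (SE at most 0.163, adjusted p = 0.983) and -0.25 for CTDSPL (SE at most 0.184, adjusted p = 0.867). The 2 genes of one miR-26a sequence thus lay on either side of 0, and their difference was not tested.

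SREBF1 and SREBF2 encode transcription factors that switch on lipid and sterol synthesis. SREBF1 stood at 2862 and 2006 normalised reads in the controls and 2538 and 2336 in the knockdown. SREBF2 stood at 3703 and 3148 against 3313 and 3471. In both genes the knockdown libraries lay between the controls, and the log2 fold changes in the authors' deposited table were 0.001 and -0.01 (adjusted p = 0.999 for each). Their limma 95% intervals ran from -0.30 to 0.35 and from -0.27 to 0.25. HUWE1, a ubiquitin ligase with MIR98 and MIRLET7F2, and WDR82, a subunit of a histone methyltransferase complex with MIRLET7G, carry let-7 family hairpins. The log2 fold change of HUWE1 in the authors' deposited table was -0.003. WDR82 stood at 3276 and 3146 normalised reads in the controls and 3744 and 3678 in the knockdown, without overlap, and its log2 fold change in the authors' deposited table was 0.21 (SE at most 0.138, adjusted p = 0.829).

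Among RNA-binding and transcription proteins other than NSRP1 and ZRANB2, the deposited log2 fold changes were 0.09 for HNRNPK, 0.07 for NFYC, a subunit of the CCAAT-binding factor, 0.06 for LARP7, which binds the 7SK RNA, and 0.05 for RCL1, a ribosomal RNA processing factor. They were -0.03 for R3HDM1, -0.06 for SND1, a nuclease-domain RNA-binding protein, and -0.16 for ZFR, a zinc finger protein that binds double-stranded RNA. All 7 are from the authors' deposited table and none was called. Of the metabolic and translation genes, C9orf3 stood at 447 and 378 normalised reads in the controls and 560 and 449 in the knockdown. The shallower knockdown library was above the deeper control by under 2 reads, and the log2 fold change in the authors' deposited table was 0.29 (SE 0.213, adjusted p = 0.860). The mitochondrial fatty acid oxidation enzyme ACADVL had 0.10, the tRNA-related gene DALRD3 0.10, the translation factor ABCF1 0.09 and the mitochondrial isoleucyl-tRNA synthetase IARS2 -0.01 in the same column of the authors' deposited table. Transcripts of NDUFAF3 and WDR6 on the opposite strand share exon sequence with DALRD3.

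The remaining hosts act in membranes, trafficking, ubiquitin signalling and adhesion. PTK2, the focal adhesion kinase, stood at 3654 and 3519 normalised reads in the controls and 4011 and 4194 in the knockdown, without overlap, and had a log2 fold change of 0.19 (SE at most 0.138, adjusted p = 0.853) in the authors' deposited table. TLN2, a talin that links integrins to actin, had the lowest value, -0.33 (SE at most 0.393, adjusted p = 0.941) in the authors' deposited table, from 84.5 and 81.7 normalised reads in the controls and 61.3 and 71.3 in the knockdown. Those counts are low, and its limma 95% interval ran from -0.90 to 0.25. COPZ1, a coatomer subunit, and CLCN5, a chloride transporter of endosomes, also had both knockdown libraries below both controls, at log2 fold changes of -0.16 and -0.08 in the authors' deposited table. DNM2, the dynamin that pinches off vesicles, EVL, an actin regulator, VMP1, GPC1, a heparan sulfate proteoglycan, and MIB1, a ubiquitin ligase of Notch signalling, lay between -0.13 and 0.11 in the authors' deposited table.

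No host was called lower, and for the hosts not called the error sets how large a change could have been missed. Library values were available for 27 of the 36. The 95% limma interval held 0 in all 27 and stayed within 1 log2 unit of 0 in each, from -0.90 at the lowest bound to 0.99 at the highest, with a median distance from the estimate to either bound of 0.28. The highest bound belonged to GPC1, at a deposited mean of 25.7 normalised reads. A log2 fold change within 0.1 of 0 was listed for 20 of the 36 in the authors' deposited table. By limma on the recovered libraries 3 of the 30 hosts (10.0%) had an unadjusted p under 0.05, the same 3 that were called, beside 10.3% of all recovered genes. MEST, an imprinted gene, had 21.1 and 24.0 normalised reads in the controls and 25.6 and 11.1 in the knockdown, and the authors gave it no adjusted p. LPP, an adhesion protein gene with MIR28, was listed at 0 in every library, as were the 3 genes that overlap it.

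The hairpins themselves have rows of their own in the table. Of the hairpins inside the hosts, 53 on the host's strand and 13 on the opposite strand were matched by ID, and none was tested by the authors. On the host's strand 36 of the 53 rows held reads, 67 and 45 reads in the deeper and shallower control libraries and 179 and 84 in the knockdown libraries. After division by the size factors these were 54.5 and 49.0 in the controls and 163.8 and 103.3 in the knockdown, a ratio of 2.58. On the opposite strand 0 of 13 rows held a read. Rows for MIR423, MIR224, MIR452, MIR21, MIR24-1 and MIR7-1 were not matched by ID and are not analysed here. These are all 6 own-strand hairpins in an annotated exon, among them every own-strand hairpin of NSRP1 and GABRE. The own-strand sums thus cover only hairpins outside the annotated exons of their hosts. Total RNA libraries do not capture mature microRNAs, so these are reads of longer RNA that was assigned to the hairpin's interval.

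MIR126, in intron 8 of 10 of EGFL7, a secreted endothelial protein gene, had the most reads gained. Its row held 2 and 1 reads in the controls and 23 and 17 in the knockdown, deeper first. EGFL7 itself stood at 2408 and 1954 normalised reads in the controls and 2473 and 1852 in the knockdown, with overlap, and its log2 fold change in the authors' deposited table was -0.01. The row thus held more reads in each knockdown library while the host gene's row did not separate the groups. Hairpin rows of other hosts that were not called also held more reads. MIR15B, in SMC4, had 2 and 2 reads against 12 and 7. MIR191, in DALRD3, had 1 and 1 reads against 15 and 3. MIR25, in MCM7, had 5 and 1 reads in the controls and 19 and 5 in the knockdown, and the host's own fold change was negative. The shallower knockdown library equalled the deeper control only in reads not scaled for depth, at size factors of 0.813 and 1.23. MIR301A, in SKA2, had 2 and 1 reads against 13 and 1, a gain in the deeper knockdown library alone. In the called host ZRANB2, MIR186 had 3 and 0 reads against 9 and 2.

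MIR877 showed no such separation. It fills the 86-base intron 13 of 24 of ABCF1 from end to end, as its sequence above shows by starting with GU and ending with AG, the ends of a spliced intron. Its row held 22 and 10 reads in the controls and 19 and 17 in the knockdown, with overlap. Together with MIR638 and MIR6793 in DNM2 and MIR6777 in SREBF1, which also abut an exon of the principal transcript, it summed to 25.2 and 19.6 normalised reads in the controls and 26.5 and 27.0 in the knockdown, a ratio of 1.20. MIR638 had 3 and 5 reads in the controls and 1 and 1 in the knockdown. MIR6777 had 6 and 2 against 9 and 2, and MIR6793 had 0 and 1 against 0 and 2. The intron of MIR6777 has 89 bases, but those of MIR638 and MIR6793 have 41334 and 3814. The other 49 rows summed to 29.3 and 29.4 in the controls and 137.3 and 76.2 in the knockdown, a ratio of 3.64, and to a ratio of 3.07 without MIR126. They include the 8 rows of CLCN5, whose hairpins lie outside the principal transcript and were not assessed for abutting. Of these 49, 26 held more normalised reads in the knockdown, 6 held fewer and 17 held none. Of the 32 with reads, 13 had no control read. The split was made after the reads were seen, the counts are small, and no test was run on it. Reads were not summed over hairpin rows outside the hosts. Whether these ratios and counts are particular to the hosts' hairpins therefore cannot be read from them.

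MIR98 in HUWE1, with 2 and 6 reads in the controls and 2 and 1 in the knockdown, and MIR454 in SKA2, with 2 and 4 against 2 and 0, were among the rows with fewer reads. Some hairpins share an intron with another. Beside MIR25 in the MCM7 intron, MIR93 had 0 and 0 reads in the controls and 2 and 0 in the knockdown, and MIR106B had 1 and 1 against 3 and 1. Beside MIR15B in SMC4, MIR16-2 had 0 and 0 against 6 and 0, and beside MIR191 in DALRD3, MIR425 had 3 and 0 against 1 and 8. In NFYC, MIR30E had 0 and 0 against 2 and 0 and MIR30C1 0 and 0 against 1 and 1. In these introns each row held more reads in the knockdown libraries summed, while in SKA2 MIR301A held more and MIR454, in the same intron, held fewer. No difference between hairpins was tested.

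**Figure D4:**
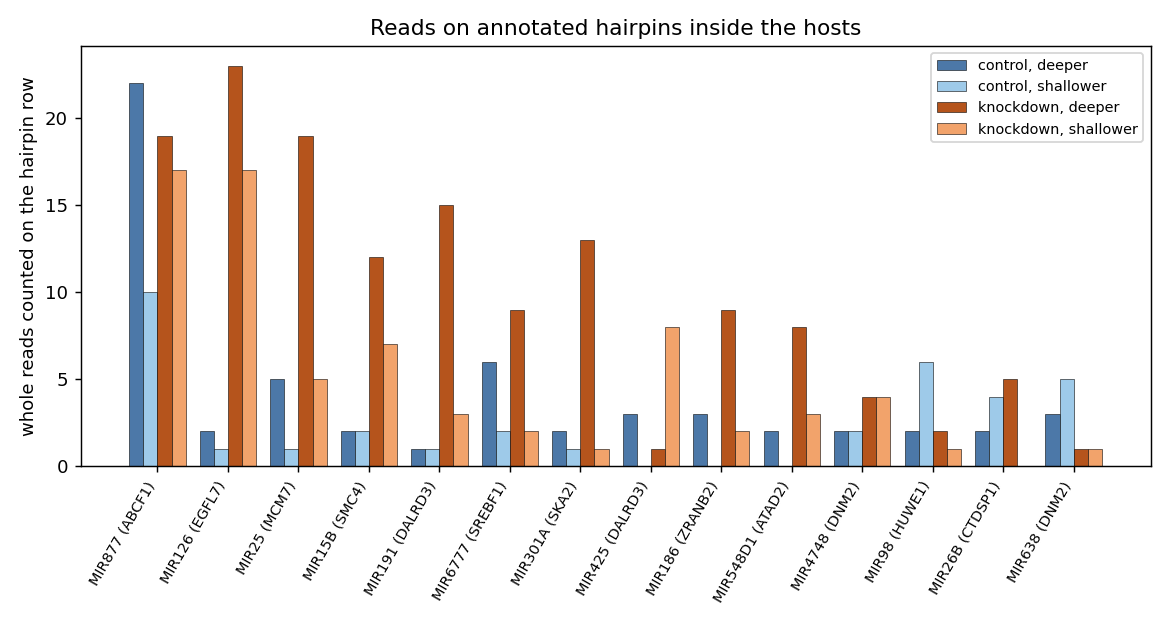
Whole reads counted on the row of each annotated hairpin inside a host, for the rows with the highest means, with 1 bar per library and the host in parentheses. MIR126 stands at 2 and 1 reads in the controls and 23 and 17 in the knockdown, and MIR877 at 22 and 10 against 19 and 17; reads are not scaled for depth.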

How the data were processed

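The 4 libraries of K562 cells were grouped by their labels, 2 per group. The table deposited by the authors holds, per the file headers, 3 values a gene from their comparison: a signal (reads normalised by size factors, averaged over the libraries), a log2 ratio of the groups and an adjusted p-value. STAR 2.6.0a, Bowtie2 2.3.4.1, DESeq2 1.24.0 and hg38 are named in the submitters' processing notes. How reads were counted, with which strand setting and annotation, is not given in the sources used here, so overlapping genes may share reads. On the opposite strand 0 of 13 hairpin rows held a read. MIR548AA1 and MIR548D1 cover the same bases on opposite strands in ATAD2, and only MIR548D1, on the host's strand, held reads. Sharing of reads between genes was not tested. A further log2 column deposited by the authors, whose assay is not stated, was not used.

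The table has 0 columns of single libraries, so the planned count test could not be run and the authors' adjusted p was used at 0.05. Undoing the Benjamini-Hochberg adjustment gave each p, or its upper limit where genes share a value, and from it the SE. Each deposited mean, printed to 15 digits, is a sum of whole reads times the value of 1 read in each library. The value of 1 read in each library was found with a tolerance of 1e-06. All 2814 distinct means under 6 were such sums. Whole reads were recovered for 13374 of 14231 tested genes (94.0%) from the mean, with the fold change added from a mean of 300 up. Below that, the deposited fold change, which was not used, fell within the range the recovered reads allow in 4529 of 4529 genes (tolerance 0.0001). The side of each library follows the sign of the fold change. The limma fit (3.58.1, R 4.3.3) used log2(normalised reads + 1) of these genes and was added after the data were seen. With 2 libraries per group an exact 2-sided permutation test cannot go below p = 0.333, so none is given. Recovery and fit were tested on simulated data. There the fold change given to the search was the plain ratio of group means and not a fitted value. The simulation therefore does not cover that difference from the deposited fold changes.

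Hairpins and exons were placed with GENCODE 29, in which 57433 of 58037 rows matched without the version. Hairpin sequences were found for 53 of 59 own-strand hairpins. Members, lists and classes were chosen with earlier results of these data known. Full statistics are given for called hosts, the 6 hosts not called with the smallest adjusted p, the 3 highest and 3 lowest fold changes and the paralogue families (limma intervals in place of an SE for the SREBF genes), and hairpin rows were named after their reads were seen.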

Additional observations from a re-analysis of the deposited data

How the results depend on the processing

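At an adjusted p under 0.01 or 0.1, with adjustment over protein-coding genes alone, with own-strand hosts or hosts of a mean of at least 100 alone, and by limma on the recovered libraries, 3 hosts were called higher and 0 lower. The limma call of these 3 is not a separate check, since their reads were recovered with the deposited fold change. Under a Bonferroni adjustment 2 were called, without GABRE. The median log2 fold change of the hosts was 0.07 after centring on all tested genes, where 28 hosts lay above 0 and 5 hosts not called changed sign, and 0.04 under the other settings with all libraries. Leaving out 1 recovered library at a time, with the lone library assumed to vary like the other group, limma called from 0 to 3 hosts higher and 0 lower. The median then ran from -0.04 to 0.13, with from 11 to 20 of the 30 recovered hosts above 0. The calls over all recovered genes ran from 14 to 195, beside 41 with all libraries. The cause was not tested. No paired analysis was possible because the recovered libraries carry no replicate number. The edgeR fit was not run, since the table holds no counts and high means were not recovered. Depth limits GPC1, TLN2 and MEST, and every hairpin row.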
